A study of Mus musculus with 25 samples.

Results

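The heat shock proteins and co-chaperones described here were 10 genes, chosen by symbol, of 43411 in a count table of microglial RNA. They were Hspa1a, Hspa1b, Hspa8, Hspa5, Hsp90aa1, Hsp90ab1, Hsph1, Dnajb1, Hspb1 and Bag3. Microglia were sorted by FACS as CD11b+ CD45med cells from the brains of 23 mice at 3 months of age, and each library came from 1 mouse. The homozygous mice (Homo, n = 10, 5 females and 5 males) were Bin1flox/flox with Thy1-Cre, the heterozygous mice (Het, n = 7, 4 females and 3 males) were Bin1flox/wt with Thy1-Cre, and the WT littermates (n = 6, 2 females and 4 males) were Bin1flox/wt without Cre. The floxed line was B6.129S6-Bin1tm2Gcp/J and the Cre line FVB/N-Tg(Thy1-cre)1Vln/J, and every mouse carried at least 1 floxed Bin1 allele. Thy1 drives Cre in neurons, so the allele was recombined by design in neurons and not in the microglia that were sequenced. By the animal numbers in their titles, Homo mice form 2 series, called here lower-numbered (n = 6, F1, F2, F3, M1, M2 and M3) and higher-numbered (n = 4, F4, F5, M4 and M5). The numbers of WT and Het mice are all smaller than those of either series, so that genotype and number range cannot be told apart, and no label says what a range stands for.

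Heat shock proteins are molecular chaperones that bind unfolded proteins and help them fold, stay soluble or be degraded. Heat shock factor 1 (Hsf1) switches on the stress-inducible members (Hspa1a, Hspa1b, Hspb1, and in part Hsph1, Dnajb1, Bag3 and Hsp90aa1) by binding short inverted repeats called heat shock elements, whereas Hspa8 and Hsp90ab1 are made in most cells at all times. Hspa5 (BiP) works in the lumen of the endoplasmic reticulum (ER) and is switched on by the unfolded protein response through ER stress elements. In cells taken from brain tissue, heat shock genes and immediate-early genes such as Fos are known to respond to the handling of the tissue as well as to signals in the living brain.

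The start-site sequences are shown to mark matches to the elements named above, and because those of Hspa1a and Hspa1b are nearly alike. Binding to the matches was not tested. RefSeq start-site windows (GRCm38.p6) were at hand for 7 of the 10 members, and Hspa8, Hsp90aa1 and Hsp90ab1 had none. The 250 bases upstream of each start site were searched on both strands for the heat shock element as GAANNTTC or TTCNNGAA, which are their own reverse complements, and for the ER stress element, which is CCAAT and CCACG with 9 bases of any kind between them. A match to the letters of the heat shock element was found in 4 of the 7 members with a window. Of these, Hspa1a and Hspa1b have nearly alike windows. Of all 32851 windows of this length, 12.8% hold such a match. Capitals mark the element in the 3 windows that follow, each printed 5′ to 3′ on the strand of its gene.
Hspa1a, chr17:34972157-34972406, minus strand: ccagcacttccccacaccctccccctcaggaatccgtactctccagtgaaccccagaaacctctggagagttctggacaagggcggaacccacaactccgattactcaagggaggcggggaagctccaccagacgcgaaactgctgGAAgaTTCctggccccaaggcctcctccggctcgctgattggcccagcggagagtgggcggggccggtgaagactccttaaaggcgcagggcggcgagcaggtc
Hspa1b, chr17:34959239-34959488, minus strand: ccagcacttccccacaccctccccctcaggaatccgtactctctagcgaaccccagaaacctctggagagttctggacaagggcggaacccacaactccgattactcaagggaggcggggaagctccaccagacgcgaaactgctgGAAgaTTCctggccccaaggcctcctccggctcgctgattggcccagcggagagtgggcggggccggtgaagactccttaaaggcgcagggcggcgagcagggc
Hspb1, chr5:135887669-135887918, plus strand: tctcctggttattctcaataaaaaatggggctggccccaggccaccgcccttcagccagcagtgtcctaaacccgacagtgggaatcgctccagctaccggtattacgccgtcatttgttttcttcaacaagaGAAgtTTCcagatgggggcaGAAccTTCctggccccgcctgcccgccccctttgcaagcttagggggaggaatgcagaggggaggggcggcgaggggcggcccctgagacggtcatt
The Hspa1a and Hspa1b windows were identical at 247 of 250 positions, and in both the element lies 104 to 97 bases upstream of the start. Hspb1, the gene of a small heat shock protein that keeps unfolded proteins soluble, held the element at 117 to 110 and again at 97 to 90 bases upstream. In Hsph1, the site TTCTCGAA lies 33 to 26 bases upstream of the first annotated start. Hspa5 held the ER stress element as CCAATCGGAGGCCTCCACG, 65 to 47 bases upstream, which 0.113% of all windows contain. The windows of Dnajb1 and Bag3 held neither element in these letters.

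Total counts per mouse ranged from 10812969 to 16734846, and 12908 genes had enough counts to be tested. Of the 10 members, 9 passed this filter on low counts and Hspb1 did not, so its test values come from a fit of all 24758 genes with a count. Levels are given as CPM, the count divided by the TMM-normalized library total and scaled to a common size. Bin1, the floxed gene, was at 699 ± 88.3 CPM (SD, n = 6) in WT littermates, 692 ± 40.6 CPM (SD, n = 7) in Het mice and 481 ± 130.2 CPM (SD, n = 10) in Homo mice. The 12 microglial markers summed to between 60260 and 97540 CPM, against 4.37 to 37.7 CPM for 12 neuronal markers, so the label of the sorted cells held. Of the 12 microglial markers 6 fell in Homo against WT mice and none rose, where 7.09% of all genes fell at the adjusted threshold. The neuronal sum did not overlap between Homo mice (at most 9.43 CPM) and the other mice (at least 12.3 CPM). It is a sum of low values, as 10 of the 12 neuronal markers averaged below 1 CPM in Homo, 8 in Het and 7 in WT mice. The share of all genes that separate in this way was not counted. In bulk RNA, fewer cells of a type and less RNA per cell cannot be told apart.

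Compared per length in WT littermates, the members differed widely in abundance. Hspa5 led with 359 ± 47.3 CPM per kb of exon (SD, n = 6; rank 93 of 12908 genes), followed by Hspa8 at 195 ± 30.6 and Hsp90ab1 at 155 ± 20.3. Dnajb1, which activates the ATPase of HSP70 proteins, and the inducible Hsp90aa1 were close together at 25.5 ± 3.95 and 24.9 ± 4.28 CPM per kb, and did not differ beyond their spread. Bag3 was at 11.8 ± 2.15 and Hsph1 at 2.90 ± 0.874 CPM per kb. At the low end were Hspa1b at 0.941 ± 0.880, Hspa1a at 0.390 ± 0.329 and Hspb1 at 0.274 ± 0.247 CPM per kb, whose spreads overlapped.

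The stress-inducible HSP70 gene Hspa1a (ENSMUSG00000091971.3, GRCm38 chr17:34969190-34972156, a single exon on the minus strand) was low in the control mice and high in some Homo mice. In WT littermates it ranged from 0 to 2.36 CPM (median 0.826) and in Het mice from 0 to 4.22 CPM (median 1.62). Among the lower-numbered Homo mice it was at 37.7 CPM in F1, 33.5 in F2, 25.3 in M1, 18.9 in M2, 8.61 in F3 and 0.875 in M3. The higher-numbered Homo mice had 0.363 CPM in F5, 0.370 in M5 and 0 in F4 and M4, which together is 10 counts. Thus 5 of 10 Homo mice lay above all WT and Het mice, all 5 of them lower-numbered, while M3 and the higher-numbered mice lay within the range of the controls.

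In the study's comparison of all Homo mice with WT littermates, Hspa1a rose 11.2-fold (log2 fold change 3.48, SE 1.15, adjusted p = 0.0457, edgeR's quasi-likelihood test) and was the only DEG (adjusted p below 0.05 and fold change above 1.5) of the 9 members tested. For comparison, 1.65% of all genes tested were higher DEGs, 1.75% were lower DEGs, and 3.4% were DEGs in either direction. The call was close to the threshold. Only 7 of the 23 fits that left out 1 mouse kept it, those without Homo F4, F5, M3, M4 or M5 or without Het F1 or M1, with adjusted p between 0.0247 and 0.0944 over all 23. Limma-voom gave a log2 fold change of 1.54 with adjusted p = 0.656.

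The comparison with Het mice, which carry Cre as well, used the same Homo libraries as that with WT littermates. In it Hspa1a was again the only DEG among the 9 members tested (log2 fold change 2.91, SE 1.02, adjusted p = 0.041, edgeR's quasi-likelihood test). Of all genes, 2.32% were higher DEGs and 6.62% DEGs in either direction. The Hspa1a call held in 13 of the 23 fits without 1 mouse and was lost with limma-voom (log2 fold change 0.71, adjusted p = 0.79). Heterozygous loss gave no DEG among the members against WT littermates, as among all genes (0% called by edgeR, with 7.73% at an unadjusted p below 0.05). DESeq2 and limma-voom called no member there either, and adjusted p-values of the 9 members tested lay between 0.745 and 0.966.

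Within Homo mice the lower-numbered mice exceeded the higher-numbered ones in Hspa1a by a log2 fold change of 6.87 (SE 1.13, adjusted p = 0.00237), where 0.302% of all genes were higher DEGs and 0.356% DEGs in either direction. Every fit without 1 mouse kept this call, as did DESeq2, whereas limma-voom gave 6.80 with adjusted p = 0.531. Set against WT littermates, the lower-numbered mice were higher by a log2 fold change of 4.30 (SE 0.78, adjusted p = 0.00115; limma-voom 4.09, adjusted p = 0.105). The higher-numbered mice were at -2.56 (SE 1.19, adjusted p = 0.221), and was a lower DEG when low-count genes were not filtered out (adjusted p = 0.0404, with 0.876% of all genes lower DEGs in that fit).

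**Figure D1:**
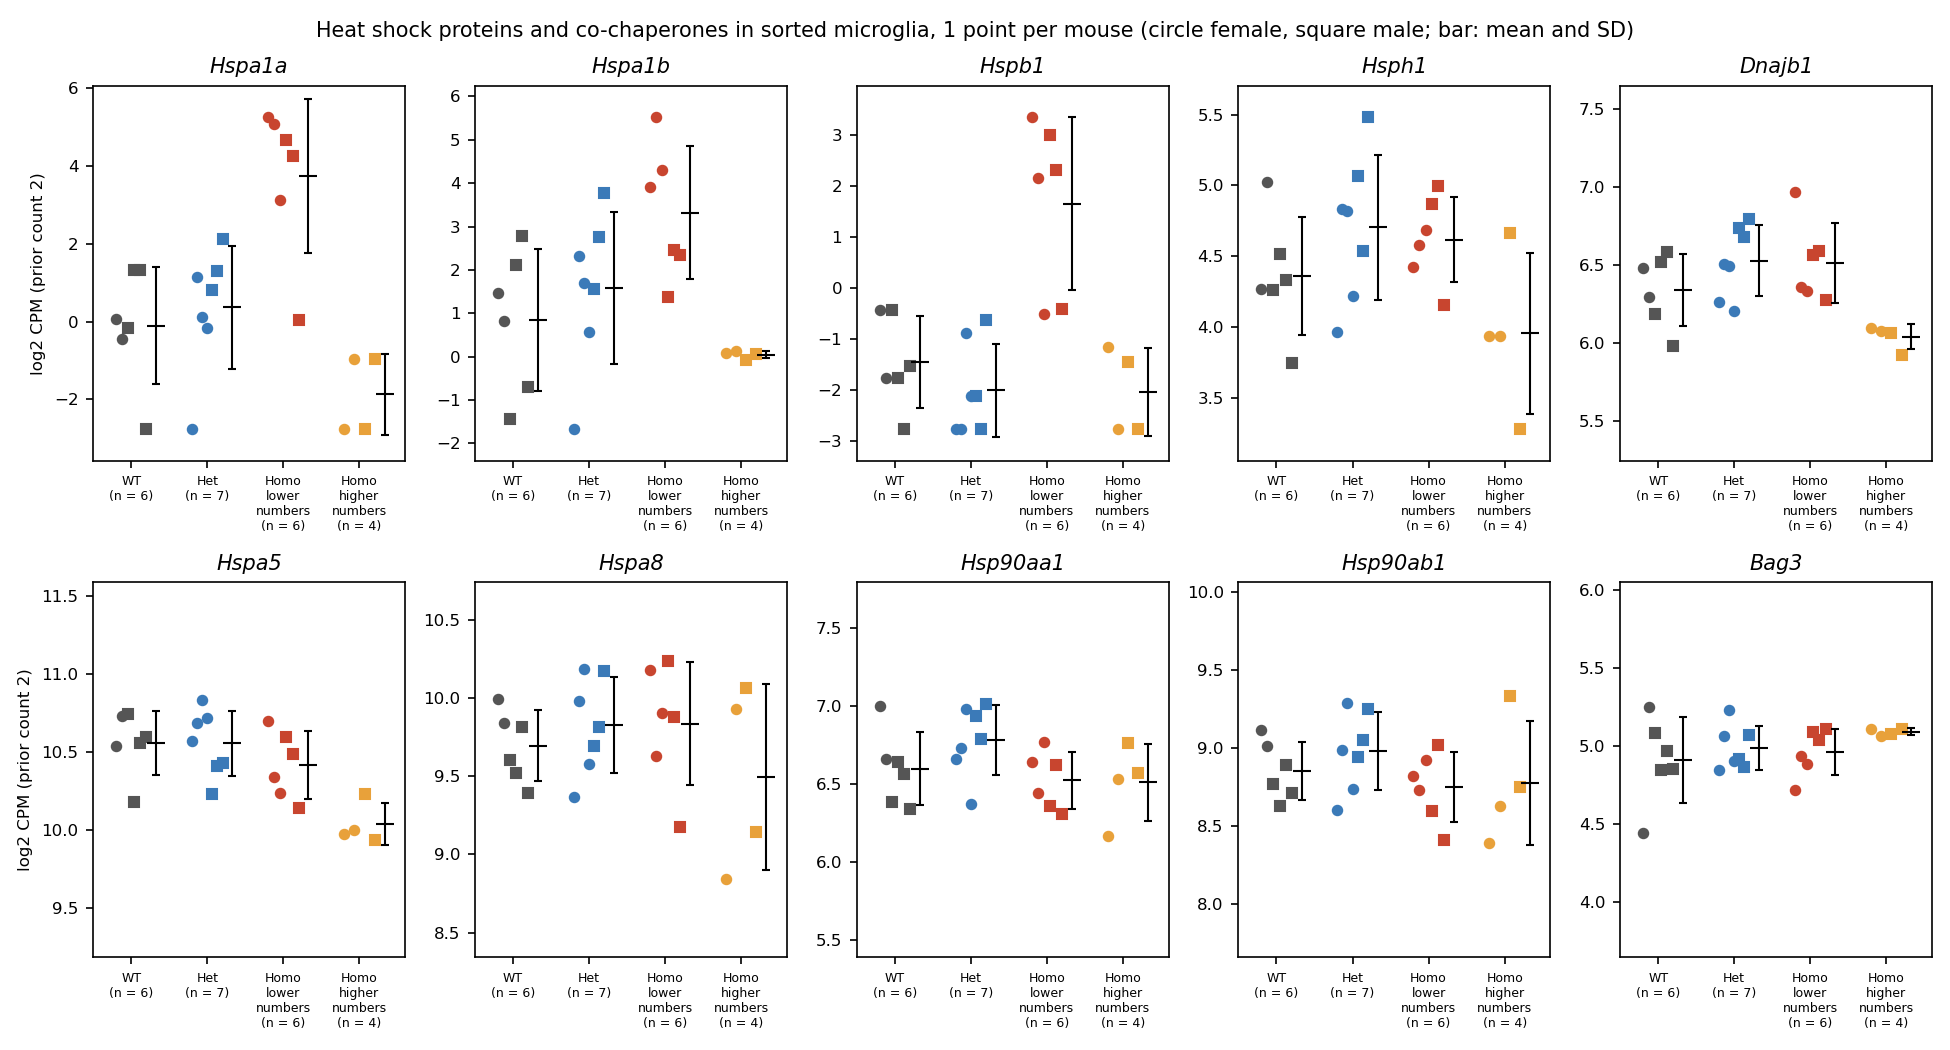
Level of each member in every mouse, in log2 CPM (prior count 2; vertical axes, each with its own range), for WT, Het, lower-numbered Homo and higher-numbered Homo mice; circles are females, squares males, and the bars at the right of each group show mean and SD. Hspa1a, Hspa1b and Hspb1 lie higher in most lower-numbered Homo mice, and the panels of Hspa8, Hsp90aa1, Hsp90ab1 and Bag3 overlap throughout.

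Hspa1b (ENSMUSG00000090877.3, chr17:34956436-34959238, minus strand), the neighbouring gene for nearly the same protein, varied more among controls. It ranged from 0.225 to 6.69 CPM (median 2.12) in WT littermates and from 0.166 to 13.6 CPM (median 3.12) in Het mice. Lower-numbered Homo mice had 45.8 CPM in F2, 19.7 in F3, 14.9 in F1, 5.38 in M2, 4.92 in M3 and 2.46 in M1. In the higher-numbered mice the values were alike, from 0.804 to 0.943 CPM. By the counts assigned to Hspa1b, the 3 lower-numbered females were the only Homo mice above all controls, and the males lay within the control range. Summed with Hspa1a, the males M1 (27.7 CPM) and M2 (24.3 CPM) also lay above all controls (at most 17.8 CPM).

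Over all Homo mice, Hspa1b did not pass against WT littermates (log2 fold change 1.59, SE 0.96, adjusted p = 0.301). In the lower-numbered mice alone it was a DEG (2.51, SE 0.81, adjusted p = 0.0456), so that 2 of 9 members were higher DEGs there against 1.77% of all genes (3.66% in either direction). That call was kept in 8 of the 23 fits without 1 mouse, with adjusted p up to 0.12, and limma-voom gave 2.40 with adjusted p = 0.0771. The difference between lower- and higher-numbered mice was large but did not pass (4.08, SE 0.99, adjusted p = 0.0732) unless low-count genes were kept in the fit. A difference between the sexes in the change from WT to Homo mice did not pass the test for any member, and WT littermates held only 2 females. The interaction for Hspa1b (males minus females) was -2.94 (SE 1.63, adjusted p = 0.992), 0% of all genes passed, and 4.99% had an unadjusted p below 0.05.

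The counts of the pair need caution, since 58.8% of the 50-base sequences of Hspa1a also occur in Hspa1b and 62.3% of those of Hspa1b occur in Hspa1a. Sharing was 82.4% in the coding part of Hspa1a, 57.7% in its 5′ UTR and 0% in the 3′ UTR, so only reads from the 3′ end and a minority of others tell the genes apart. RSEM splits shared reads by estimate. The share assigned to Hspa1a ranged widely among the lower-numbered Homo mice, 91.1% in M1 (463 counts for the pair), 77.8% in M2, 71.6% in F1, 42.3% in F2, 30.4% in F3 and 15.1% in M3. It was at most 36.5% in Het mice and at most 36.0% in 5 of 6 WT littermates, with 76.9% in WT M1 (13 counts for the pair), and Hspa1b had more counts than Hspa1a in 12 of 13 control mice.

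Summed over the pair, which does not depend on the split, WT littermates had 0.474 to 9.05 CPM (median 2.87) and Het mice 0.166 to 17.8 CPM (median 4.43). The sum was 79.3 CPM in F2, 52.6 in F1, 28.4 in F3, 27.7 in M1, 24.3 in M2 and 5.79 in M3 of the lower-numbered Homo mice, and 0.804 to 1.31 CPM in the higher-numbered mice. As 1 feature, the pair did not pass between all Homo mice and WT littermates (log2 fold change 2.50, adjusted p = 0.0886) or Het mice (1.77, adjusted p = 0.14). It passed between lower-numbered Homo mice and WT littermates (3.34, adjusted p = 0.00322) and between lower- and higher-numbered Homo mice (5.12, adjusted p = 0.0047). Hspa1a also overlaps Gm20481 on the opposite strand by 564 exon bases, and that gene held 6 counts over all mice.

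**Figure D2:**
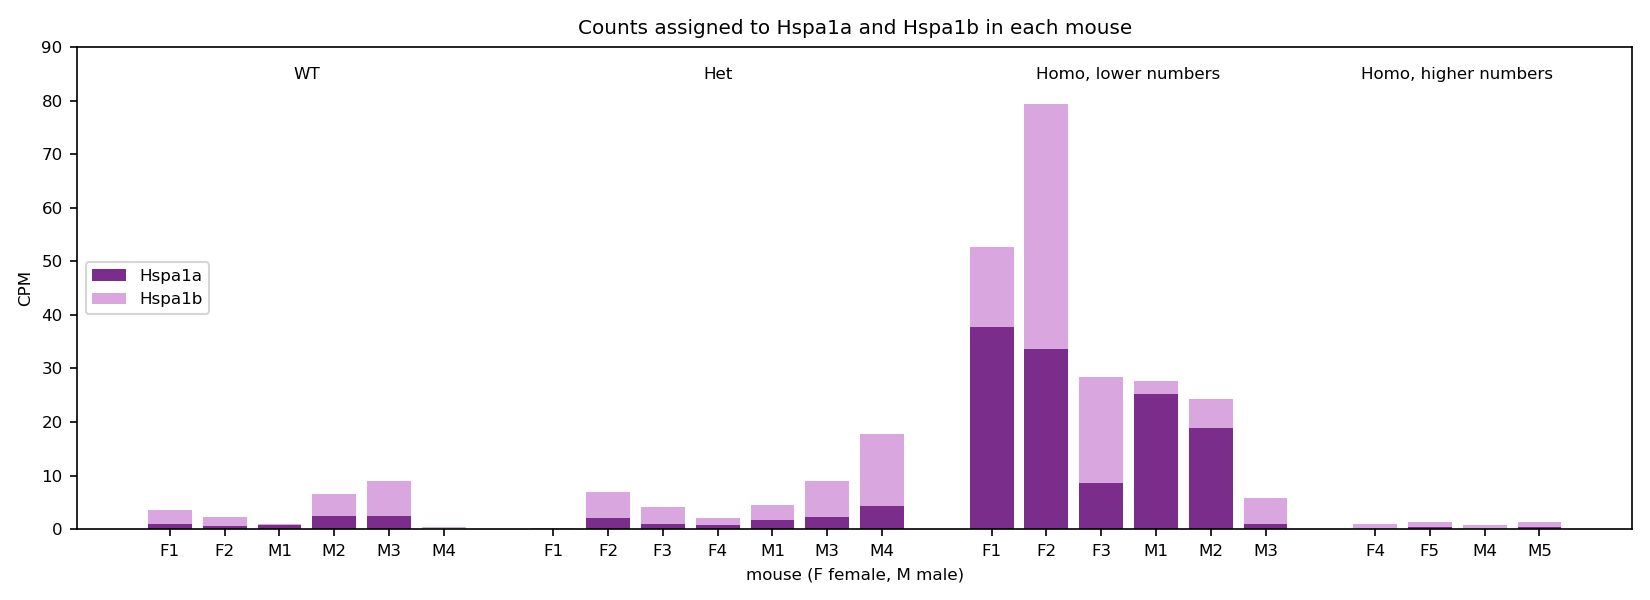
Level in CPM assigned to Hspa1a (dark) and Hspa1b (light), stacked for each mouse and grouped by genotype and number range. The summed level exceeds the highest control value (17.8 CPM) in 5 of the 6 lower-numbered Homo mice, and the division within the bars differs from mouse to mouse.

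Hspb1 (ENSMUSG00000004951.10, chr5:135887919-135889563, plus strand), encoding the small heat shock protein Hsp25, was close to undetected in controls, with 23 counts over 6 WT littermates (0 to 0.601 CPM) and 14 over 7 Het mice (0 to 0.507 CPM). It reached 10.1 CPM in F1, 7.91 in M1, 4.87 in M2 and 4.35 in F2, and stood at 0.606 in M3 and 0.560 in F3. Higher-numbered Homo mice had 8 counts in all, from 0 to 0.305 CPM. All 6 lower-numbered mice lay above all higher-numbered ones, as in 1.01% of the genes that passed the filter. Of these mice 5 lay above all WT and Het mice, F3 falling below the highest WT littermate. Both separations rest in part on a few counts. M3 had 9 counts against 8 in WT F1, and F3 had 8 against 5 in Homo F4. In the fit with no filter, Hspb1 was a DEG in Homo against WT mice (log2 fold change 3.30, SE 0.95, adjusted p = 0.0312), against Het mice (4.15, SE 0.97, adjusted p = 0.0037), between lower- and higher-numbered Homo mice (5.04, SE 0.85, adjusted p = 5.66e-05) and between lower-numbered Homo and WT mice (4.01, SE 0.66, adjusted p = 1.19e-05). In that fit 0.901%, 1.28%, 0.416% and 1.14% of all genes were higher DEGs in these comparisons. The fit with no filter also gave a smaller SE for Hspa1a between the number ranges, 0.72 against 1.13 with the filter. The adjusted p of Hspa1a was 3.11e-11 there, against 0.00237 with the filter (edgeR's quasi-likelihood test). Hspb1 was not followed in the other tools or in the fits without 1 mouse. The pseudogene Hsp25-ps1 shares 48.8% of the 50-base sequences of Hspb1, so part of its reads had to be split.

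Among Homo mice the immediate-early gene Fos moved with Hspa1a and Hspb1 (Pearson's r of log2 CPM 0.92 and 0.97) and less with Hspa1b (0.66). It was at 0.0677 to 1.73 CPM in WT littermates, 0.250 to 1.26 in Het mice and 0.363 to 1.97 in the higher-numbered Homo mice. Lower-numbered Homo mice had 1459 CPM in F1, 1208 in M2, 926 in M1, 825 in F2, 6.999 in F3 and 5.32 in M3. Summed over 27 immediate-early and dissociation-induced genes, the level was 1318 to 1563 CPM in WT littermates, 1810 to 15610 CPM in lower-numbered and 1486 to 1719 CPM in higher-numbered Homo mice. Of the 21 genes of that list tested, 16 rose in Homo against WT mice, where 5.66% of all genes rose, among them the transcription factor genes Egr1 (log2 fold change 7.02, SE 1.44, adjusted p = 0.00253) and Fos (8.75, SE 1.84, adjusted p = 0.00299), and Ier2 (4.45, SE 0.94, adjusted p = 0.00319). Lower-numbered Homo mice were higher than higher-numbered ones in 11 of the 21, against 0.356% of all genes past the adjusted threshold. Markers of monocytes and neutrophils summed to 32.8 to 105.4 CPM in lower-numbered and 13.2 to 55.2 CPM in higher-numbered Homo mice, beside 5.87 to 42.4 CPM in WT littermates and 4.43 to 57.3 CPM in Het mice. F3 stood apart, with Fos near 7 CPM and Hspa1b above all controls. M1 and M2, with Fos at 926 and 1208 CPM, had Hspa1b at 2.46 and 5.38 CPM, within the control range. These Hspa1b values depend on how reads shared with Hspa1a were split. Summed with Hspa1a, the pair was at 27.7 CPM in M1, 24.3 in M2 and 28.4 in F3. All 3 sums lay above the highest control (17.8 CPM). The part of Fos-inducing signals, of neuronal RNA and of other blood cells in the levels of Hspa1a, Hspa1b and Hspb1 was not tested.

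**Figure D3:**
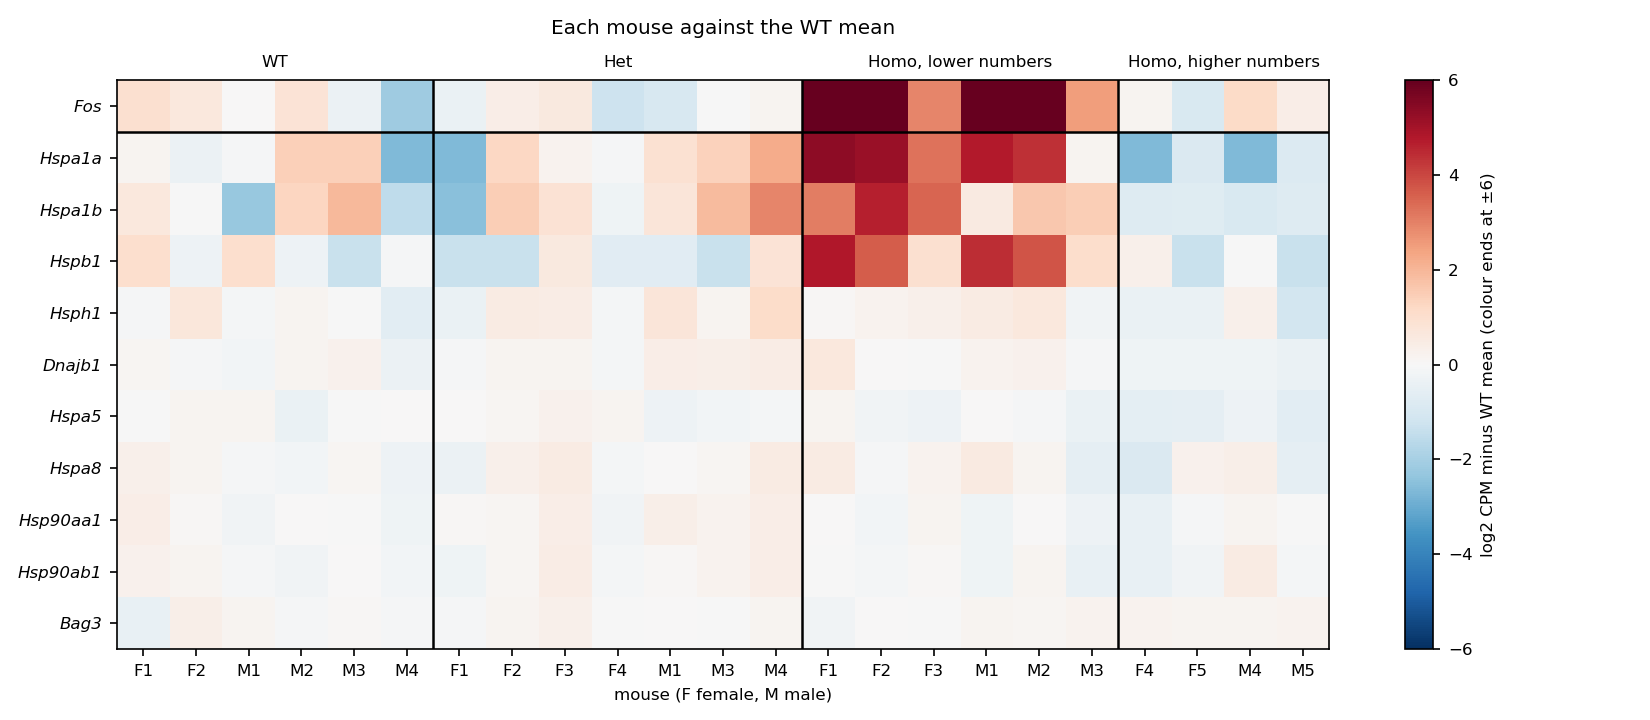
Difference of each mouse from the WT mean in log2 CPM (colour, which ends at 6 in either direction and is exceeded by Fos) for Fos and the 10 members (rows), in columns by genotype and number range. Red runs through Fos, Hspa1a and Hspb1 in F1, F2, M1 and M2, F3 and M3 are paler, and the rows of the constitutive chaperones stay near white.

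The partners of HSP70 changed less. Hsph1 (Hsp110, a nucleotide exchange factor of HSP70; chr5:149614287-149636376) ranged from 13.3 to 32.4 CPM in WT littermates, 15.5 to 44.5 in Het mice, 17.7 to 31.8 in lower-numbered and 9.55 to 25.2 in higher-numbered Homo mice. The ranges overlapped in every comparison, and Homo and WT mice differed by a log2 fold change of 0.03 (SE 0.23, adjusted p = 0.953). Dnajb1 (Hsp40; chr8:83608193-83612653) was at 63.1 to 95.9 CPM in WT littermates and 73.8 to 110.9 CPM in Het mice. Its levels did not overlap between lower-numbered (77.2 to 125.1 CPM) and higher-numbered Homo mice (60.7 to 68.3 CPM), a separation shown in this direction by 1.01% of all genes. The difference nevertheless missed the threshold (log2 fold change 0.49, SE 0.14, adjusted p = 0.13), and over all Homo mice it was 0.01 (SE 0.13, adjusted p = 0.976) against WT littermates.

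Bag3 (chr7:128523616-128546981), the co-chaperone that links HSP70 to autophagy and a known target of Hsf1, varied least among the Homo mice. It ranged from 21.6 to 37.9 CPM in WT littermates, 28.6 to 37.3 in Het mice, 26.2 to 34.3 in lower-numbered and 33.3 to 34.4 in higher-numbered Homo mice. Homo mice differed from WT littermates by a log2 fold change of 0.10 (SE 0.09, adjusted p = 0.554). Its SD over Homo mice, 0.13 on the log2 scale, was smaller than that of most genes, 14.3% of which had a smaller one. In WT littermates the SD was 0.27, and 59.8% of genes had a smaller one there. Hsf1 itself was at 63.4 ± 7.26 CPM (SD, n = 6) in WT and 68.4 ± 6.65 CPM (SD, n = 10) in Homo mice (log2 fold change 0.10, SE 0.08, adjusted p = 0.434).

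The constitutive cytosolic chaperones varied among mice of every genotype. Hspa8 (Hsc70; chr9:40800984-40810087) ranged from 671 to 1023 CPM in WT littermates, 661 to 1168 in Het mice, 577 to 1209 in lower-numbered and 460 to 1074 in higher-numbered Homo mice. Homo and WT means were alike (log2 fold change 0.05, SE 0.18, adjusted p = 0.893), but 3 Homo mice lay above and 3 below all WT littermates, and the SD of log2 CPM was 0.49 in Homo and 0.23 in WT mice. Of the genes tested, 75.9% had a smaller SD in Homo mice and 48.9% had a smaller SD in WT mice. Hsp90ab1 (chr17:45567775-45573271), the constitutive HSP90 gene, ranged from 395 to 554 CPM in WT and 335 to 644 CPM in Homo mice (log2 fold change -0.07, SE 0.12, adjusted p = 0.752). Hsp90aa1 (chr12:110690605-110702728) was at 81.1 to 127.9 CPM in WT, 82.7 to 129.1 in Het and 71.9 to 109.2 CPM in Homo mice. It did not pass against WT littermates (-0.09, SE 0.11, adjusted p = 0.652) and came close to the threshold against Het mice (-0.27, SE 0.10, adjusted p = 0.0571). Scaled by library totals alone, the direction of both HSP90 genes against WT littermates turned (0.01 for Hsp90aa1 and 0.03 for Hsp90ab1). Processed pseudogenes share sequence here too, with Gm15459 holding 34.6% of the 50-base sequences of Hspa8 and Gm12346 41.8% of those of Hsp90aa1, whereas Hsp90ab1 shares 3.44% with all other genes.

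Hspa5 (ENSMUSG00000026864.11, chr2:34771970-34777547, plus strand), which shares none of its 50-base sequences, had the lowest log2 fold change of the members over all Homo mice. WT littermates had 1160 to 1712 CPM (median 1529), Het mice 1203 to 1825 (median 1519), lower-numbered Homo mice 1130 to 1665 (median 1365) and higher-numbered Homo mice 982 to 1204 CPM (median 1017). Of the higher-numbered mice 3 of 4, and of the lower-numbered mice 1 of 6, lay below all controls, and the lowest WT littermate, M2 at 1160 CPM, stood apart from the other 5. Against WT littermates Hspa5 fell in the higher-numbered mice by 0.54 on the log2 scale (SE 0.12, adjusted p = 0.00824), which did not reach the fold change threshold. It was the only 1 of 9 members to pass the adjusted threshold there in the lower direction, as did 3.52% of all genes, and none was a DEG (2.54% of all genes). In the lower-numbered mice the log2 fold change was -0.16 (SE 0.10, adjusted p = 0.372), and over all Homo mice it was -0.30 (SE 0.11, adjusted p = 0.0741). The difference between the number ranges, 0.38 (SE 0.12), did not pass either (adjusted p = 0.191).

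**Figure D4:**
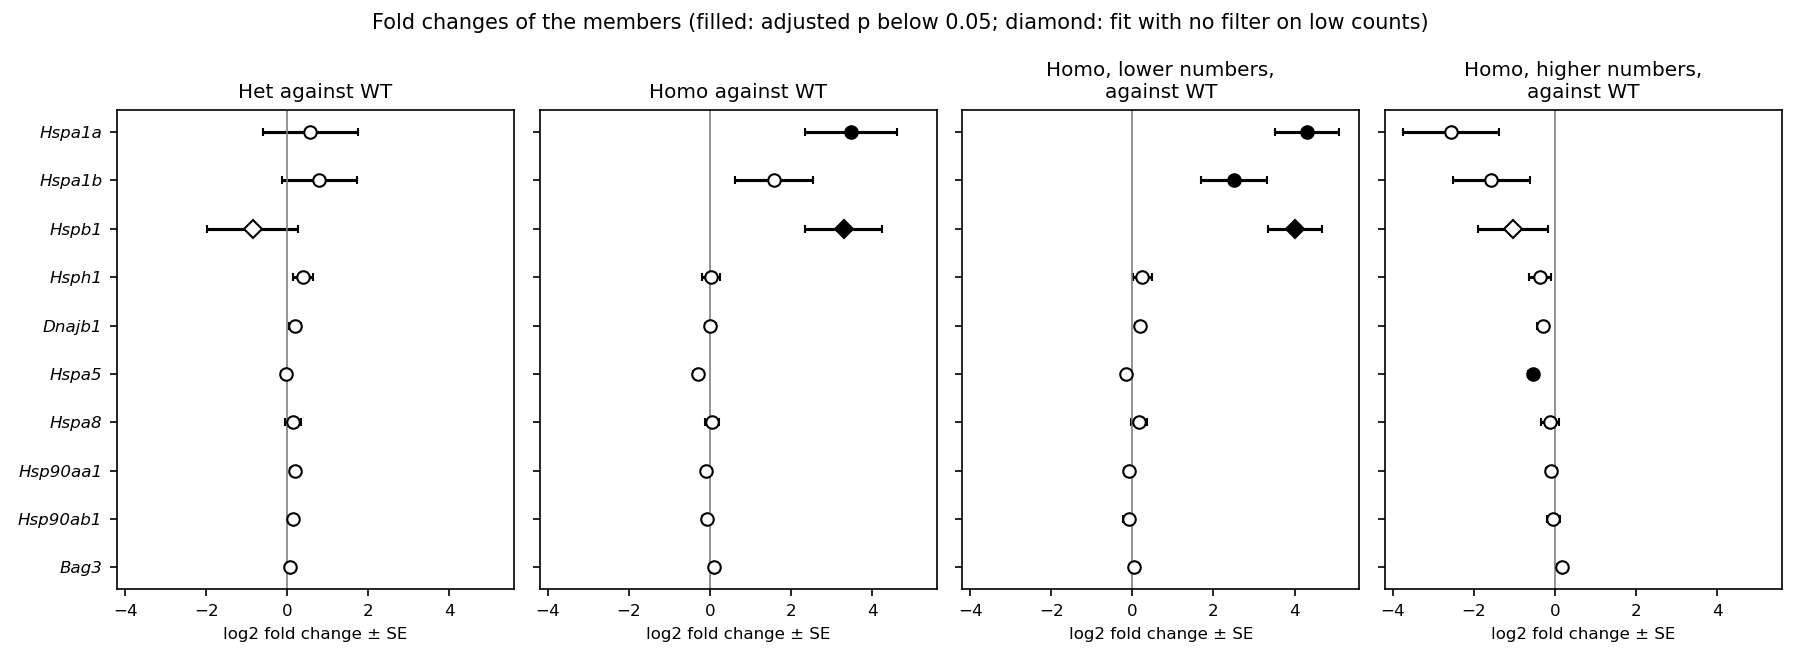
Log2 fold change (horizontal axis) with its SE for each member against WT littermates, for Het, all Homo, lower-numbered Homo and higher-numbered Homo mice; filled symbols passed an adjusted p below 0.05 and diamonds come from the fit with no filter. No symbol is filled for Het mice, Hspa1a and Hspb1 are filled for all Homo mice, Hspa1b joins them for lower-numbered mice, and Hspa5 alone is filled for higher-numbered mice.

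Hspa5 works with the other folding factors of the ER, and a list of 28 genes of the ER unfolded protein response was described beside it, all of which were tested. In Homo against WT mice 8 fell and 1 rose, with a median log2 fold change of -0.18, where 7.09% of all genes fell, 5.66% rose and the median was 0.01. Creld2, a secreted factor of the ER, fell by 0.49 (SE 0.08, adjusted p = 0.000288), with 101.8 ± 10.6 CPM in WT littermates (SD, n = 6) and 74.0 ± 9.31 CPM in Homo mice (SD, n = 10). Edem1, which directs misfolded glycoproteins to degradation, fell by 0.44 (SE 0.10, adjusted p = 0.00684), and Dnajb11, the ER partner of Hspa5, by 0.28 (SE 0.07, adjusted p = 0.00727). The gene that rose was Ppp1r15a, which reverses the translational block of the stress response (1.86, SE 0.50, adjusted p = 0.0158), at 152 ± 106.7 CPM (SD, n = 6) in lower-numbered and 31.7 ± 6.48 CPM (SD, n = 4) in higher-numbered Homo mice, against 28.8 ± 4.54 CPM (SD, n = 6) in WT littermates. Against WT littermates 7 genes of the list fell and 2 rose in the lower-numbered mice (5.88% and 4.94% of all genes), and 3 fell and none rose in the higher-numbered ones (3.52% and 2.94%). The medians of the list were -0.19 and -0.25. Scaled by library totals alone, 6 fell and 2 rose in Homo against WT mice, the list median was -0.08 and that of all genes 0.11. Under that scaling the calls over all genes changed from 730 higher and 915 lower to 1772 higher and 568 lower.

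The rest of the chaperone network was summarized from lists of 111 further genes of HSP70, HSP90, J-domain, small heat shock protein, chaperonin and heat shock factor families, of which 96 were tested. In Homo against WT mice 9 rose and 4 fell, which is 13.5% of the genes tested, beside 12.7% of all genes, and 1 rose and 1 fell beyond the fold change threshold. Against Het mice 15 rose and 9 fell (25.0% of the genes tested, and 22.7% of all genes). Of 39 J-domain co-chaperones, which bring clients to HSP70, 5 rose and 2 fell. Dnajb5 rose by 0.43 on the log2 scale (SE 0.10, adjusted p = 0.00474), Dnajb6, which keeps proteins from aggregating, by 0.24 (SE 0.06, adjusted p = 0.015), and Dnajc17 by 0.75 (SE 0.21, adjusted p = 0.0166) from a low level of 4.06 ± 1.29 CPM (SD, n = 6). Dnajc16, a membrane protein of the ER, fell by 0.69 (SE 0.13, adjusted p = 0.00166), as did Dnajb11 given above. With library totals as the only scaling, 9 of the J-domain list rose and 1 fell.

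Among 7 other HSP70 and HSP110 genes tested, only Hspa13, of the ER and microsomes, passed (fell by 0.43, SE 0.10, adjusted p = 0.00624). Of 12 HSP70 nucleotide exchange and regulatory factors only Sil1, the exchange factor of Hspa5, passed (fell by 0.38, SE 0.08, adjusted p = 0.00244). It was lower in both number ranges, by 0.37 (SE 0.09, adjusted p = 0.0102) and 0.41 (SE 0.10, adjusted p = 0.0174). Of 20 genes of the HSP90 family and its co-chaperones 3 rose, the cyclophilin Ppid (0.34, SE 0.07, adjusted p = 0.00233), the steroid-responsive immunophilin Fkbp5 (0.48, SE 0.14, adjusted p = 0.0276) and Tomm34 (0.19, SE 0.06, adjusted p = 0.043). With library totals as the only scaling 7 of these 20 rose. Of 10 chaperonin genes 1 passed, the CCT subunit Cct6a (0.20, SE 0.07, adjusted p = 0.0464). None of 4 small heat shock protein genes tested besides Hspb1 passed (Hspb6 had the smallest p, 0.71, SE 0.26, adjusted p = 0.0778), nor did any of 4 heat shock factors and regulators (Hsbp1, 0.14, SE 0.07, adjusted p = 0.178). With library totals as the only scaling 1 gene rose in each of these 2 lists. No gene of these lists of 96 passed between lower- and higher-numbered Homo mice, or between Het and WT mice. Few of all 12908 genes did so, with 46 higher and 11 lower between the number ranges and 0 between Het and WT mice.

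**Figure D5:**
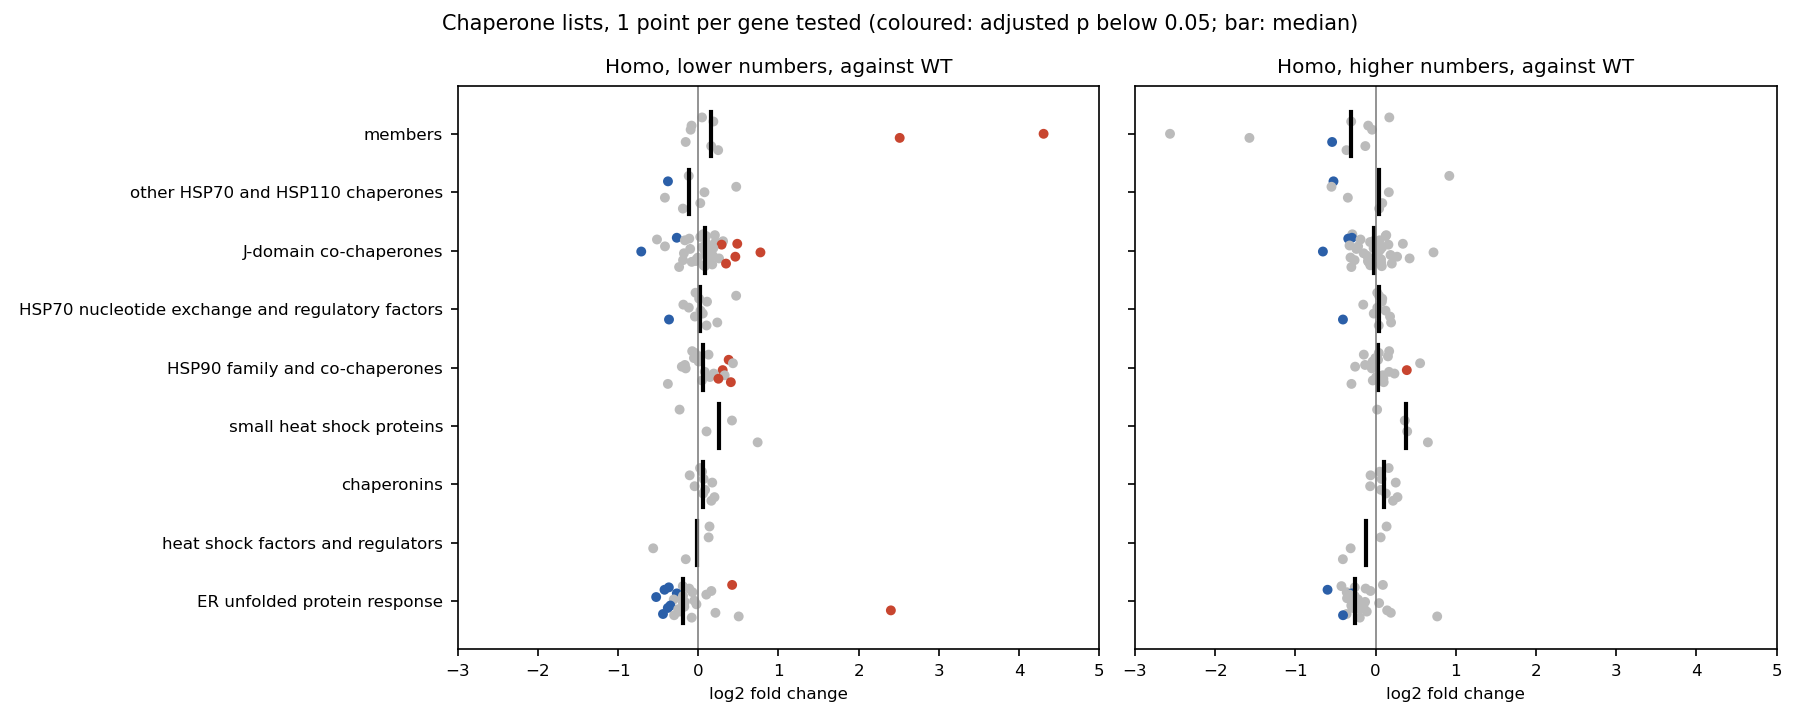
Log2 fold change against WT littermates (horizontal axis) of each gene tested in the members and 8 other lists (rows), for lower-numbered (left) and higher-numbered (right) Homo mice; coloured points passed an adjusted p below 0.05 (red higher, blue lower) and bars are medians. Hspa1a, Hspa1b and Ppp1r15a lie apart at the right in the left panel, and the blue points of the ER list lie between 0 and -1 in both.

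Over the 10 Homo mice, Pearson's r of log2 CPM was 0.81 between Hspa1a and Hspa1b, 0.88 between Hspa1a and Hspb1, 0.88 between Hsp90aa1 and Hsp90ab1, and 0.17 between Hspa1a and Hsp90aa1. With Fos, r was 0.97 for Hspb1, 0.92 for Hspa1a, 0.92 for Hspa5, 0.87 for Dnajb1, 0.66 for Hspa1b, 0.06 for Hsp90aa1 and -0.52 for Bag3. Over the 13 WT and Het mice, in which Fos stayed below 2 CPM, the same pairs gave 0.88 for Hspa1a with Hspa1b, 0.03 for Hspa1a with Hspb1, 0.77 for Hsp90aa1 with Hsp90ab1 and 0.47 for Hspa1a with Hsp90aa1. In these mice r with Fos was 0.49 for Hspa1a, 0.27 for Hspb1 and -0.01 for Hspa5. The pair Hspa8 and Hsp90ab1 had r = 0.96 there, and Hspa1b and Dnajb1 0.85. These values describe the libraries and share their depth and scaling, and the Homo values also share the division into number ranges.

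Among the genes outside the members whose levels were most like Hspa1a over all 23 mice were Rhob (r = 0.85), Arhgap12 (0.85), Btg1 (0.81) and Fos (0.81). Over the 10 Homo mice they were 4 features without a gene symbol (0.97 each, with the same values in every one of these mice, so that they count as 1 measurement) and Gm43010 (0.96). Those most like Hspa8 over all mice were Stip1 (0.72), the co-chaperone that joins HSP70 to HSP90, with Aplf (0.71), Ly6k (0.69), Rcor1 (0.68) and 5830417I10Rik (0.67). Over Homo mice alone they were Atp7a (0.93), Pcyox1l (0.92), Ankrd13c (0.91), Vps26b (0.91) and Canx (0.88). For Hspa5 the nearest genes were Wbp1l (0.85), Tmem260 (0.83), Pecam1 (0.82), Faf2 (0.81) and Actn4 (0.81) over all mice. They were Nt5m (0.96), 4930589O11Rik (0.95), Klf2 (0.95), Lrrc75aos2 (0.95) and Clasrp (0.95) over Homo mice.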

How the data were processed

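Single-end reads of sorted microglia were aligned by the authors to mm10, using OSA4 from OmicSoft and gene models of Ensembl R84. The deposited values are the authors' RSEM expected counts per gene, not normalized for depth or length, and the strand setting and the handling of reads with several alignments are not given in the sources used here. Of the values, 82.2% are whole, and all were rounded. DESeq2 is the tool named in the paper's methods. Of 25 labelled mice, 23 have a column, and 1 WT female and 1 Het male do not.

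Gene names and coordinates came from GENCODE M21 (42929 of 43411 identifiers matched), and start-site windows from RefSeq (GRCm38.p6). Low counts were removed with filterByExpr. Groups were compared by the quasi-likelihood test of edgeR 4.0.16 (R 4.3.3) on TMM-normalized counts over all genes, with genotype (or genotype and number range) and sex in 1 fit and Benjamini-Hochberg adjustment. A DEG needed an adjusted p under 0.05 together with a change of more than 1.5-fold, as in the paper. An SE is the log2 fold change over the root of its F statistic. Log2 CPM used a prior count of 2, and levels per length used merged exons. Sequence sharing was counted over 50-base sequences of annotated transcripts. The fits were tested on simulated data of independent mice, with genes that passed the filter. That simulation does not cover Hspb1, the fit with no filter or mice of a number range that share more than genotype. The depth of at least 10812969 counts limits genes below about 1 CPM most.

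The 10 members and all lists were chosen with earlier results of these data known. Named beside the members were, per list, up to 3 genes with the smallest p in each direction among those past the adjusted threshold in Homo against WT mice, otherwise the 1 with the smallest p, with Fos and Hsf1, and the 5 genes most correlated with Hspa1a, Hspa8 and Hspa5, of which 1 is not reported here. Bin1 was added as the targeted gene. Beyond the animal numbers no label names litters or batches, and the p-values take the spread between mice as that of independent animals. Mice of a number range may share more than their genotype, which the p-values do not account for. As no Homo mouse shares a number range with WT or Het mice, tests between them cannot separate genotype from range. Alternatives were other size factors and filters, DESeq2 1.42.0, limma-voom (limma 3.58.1), robust estimation, no sex term, fits of the compared groups alone, the pair Hspa1a and Hspa1b summed, no fold change threshold, each number range alone and each mouse left out in turn. Python 3.11.15 and matplotlib 3.10.9 drew the figures.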

Additional observations from a re-analysis of the deposited data

Results flagged for a closer look

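The genotype difference of Hspa1a differed between the number ranges of Homo mice, with a log2 fold change of 6.87 between lower- and higher-numbered mice (edgeR's quasi-likelihood test, adjusted p = 0.00237). That of Hspb1 differed by 5.04 (adjusted p = 5.66e-05, from the fit with no filter on low counts). Both differences are tests of the ranges within 1 genotype, and no test of a difference between the sexes passed for any member.

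The Hspa5 level of WT replicate M2 lay far below those of the other WT littermates, the gap to the nearest taking 0.645 of the range of the group. This was the only such value in 30 sets (10 members in 3 genotypes), and chance gives about 1 in 20.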

How the results depend on the processing

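The number of members called as DEGs was small, and each call could be lost. In Homo against WT mice it was 1, and 2 with no filter on low counts. It was 0 with limma-voom, with robust estimation, with only the compared groups in the fit, with Hspa1a and Hspa1b summed, and with the higher-numbered Homo mice alone. With 1 mouse left out it was 0 to 1. In Homo against Het mice it was 1, then 2 with no filter and 0 with limma-voom, robust estimation, only the compared groups or the summed pair, and 0 to 1 without 1 mouse. Between lower- and higher-numbered Homo mice it was 1, then 3 with no filter, 2 with DESeq2 and 0 with limma-voom or only the compared groups (where Hspa1a did not pass the filter), and 1 to 2 without 1 mouse. In lower-numbered Homo against WT mice it was 2, then 3 with no filter, 0 with limma-voom and 1 with robust estimation, only the compared groups or the summed pair, and 1 to 2 without 1 mouse. In higher-numbered Homo against WT mice it was 0, then 1 with no filter (Hspa1a, lower), 1 with no fold change threshold (Hspa5), and 0 to 1 without 1 mouse. Het against WT mice and the genotype difference between the sexes stayed at 0 under all alternatives run, with 0 to 0 without 1 mouse. With the higher-numbered Homo mice alone against WT littermates the direction turned for Hspa1a (log2 fold change -2.40), Hspa1b (-1.35), Hspa8 (-0.13), Hsph1 (-0.36) and Dnajb1 (-0.29). Values near 0 changed sign with limma-voom (Hspa8 -0.003, Dnajb1 -0.005), only the compared groups (Dnajb1 -0.017) and library totals (Hsp90aa1 0.009, Hsp90ab1 0.027). Without 1 mouse the ranges were -0.029 to 0.121 for Hspa8, -0.133 to 0.016 for Hsp90aa1, -0.075 to 0.26 for Hsph1 and -0.073 to 0.063 for Dnajb1. The cause of these changes was not tested. No paired analysis was possible because no label links mice of different genotypes. Replicate names such as F1 only number the mice within each genotype and sex.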
